A study of Drosophila melanogaster with 16 samples.

Results

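Accessibility was examined at 326 ATAC-seq peaks that lie in or beside genes for long noncoding RNAs (lncRNAs), out of 8069 peaks listed for female Drosophila melanogaster adult fat body, or 4.04%. A peak was taken when its midpoint fell inside a gene annotated as lncRNA, or within 500 bp of one, in RefSeq's annotation (assembly Release 6 plus ISO1 MT), whose coordinates are those of dm6, the build of the peaks. Position chose the peaks. The class was proposed with results of the same temperature comparison known, so its values are given as a description, beside those of all peaks, and no test of the class was made. The annotation places 1946 such lncRNA genes on the chromosome arms used, and 257 of them (13.2%) had at least 1 of the 326 peaks, leaving 1689 without a listed peak.

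ATAC-seq marks open chromatin with a transposase that cuts accessible DNA, and the reads in a peak measure how open that stretch is. Virgin w1118 females, reared at 25 °C, were kept for 25 days at 11 °C, where females of this species enter a reproductive arrest called diapause, or at 25 °C. Volatilised S-methoprene, an analog of juvenile hormone, or its vehicle ethanol was given at each temperature, which makes 4 groups of 4 libraries: 11 °C with S-methoprene, 11 °C with ethanol, 25 °C with S-methoprene and 25 °C with ethanol. S-methoprene was dosed as 10 µL of 39.4 mM in 99% ethanol every 2 days, and the vehicle as 10 µL of the ethanol. Each library came from 25 flies chosen by ovary appearance, regressed at 11 °C with ethanol and large in the other groups, so ovary state and temperature cannot be told apart between the ethanol groups. The authors' deposited table gives, per peak, mean normalised reads at each temperature, a fitted log2 fold change of 25 °C over 11 °C (positive is higher at 25 °C) and a false discovery rate (FDR). It holds no value per library, so no spread between replicates accompanies any value below and each library's depth is unknown. Overall means of the authors' deposited table weigh 25 °C against 11 °C as 3 to 4 in 3446 of the 3457 peaks whose means differ by over 0.2 on the log2 scale. That ratio is met by 3 against 4 or 6 against 8 libraries, and which libraries and drug groups entered is not stated.

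Markers of the labelled tissue were open: 11 of 14 fat body genes had a peak within 500 bp, the exceptions being Fbp1, Fbp2 and Cyp6a8. Of the 32 peaks of these genes 2 were called higher at 11 °C (6.25%) and 8 at 25 °C (25.0%), with log2 fold changes up to 2.34 by the authors' deposited table. Most of the 8 lie at a single gene, apolpp, as does the peak with 2.34, and the others lie at Yp1 and Yp3. All 5 oenocyte genes had peaks, and of their 15 peaks 0 were called higher at 11 °C and 6 at 25 °C, against 10.0% and 12.2% of all peaks. Of other cell types, 3 of 4 neuron genes, 3 of 7 ovary genes, 1 of 7 muscle genes (Mhc) and 1 of 6 hemocyte genes (srp, also a fat body marker) had a peak, and the glial gene repo had none. The Mhc peak held 22.0 normalised reads at 11 °C and 52.6 at 25 °C, with a log2 fold change of 1.03 (FDR 6.07e-07, authors' deposited table). A peak of elav was called higher at 11 °C there, with -0.29. Its other peak (-0.08) and those of Syt1 (0.13) and brp (0.15) were not called. The part of other cell types in the values below was not tested. In dissected tissue, fewer cells of a type with open chromatin and less open chromatin per cell cannot be told apart.

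lncRNAs are transcripts without a long open reading frame. Some act as RNA, as do the roX RNAs, which guide the dosage compensation complex to the X chromosome of males. Others are the long precursors from which microRNAs are cut, and for others still the act of transcription, or DNA elements inside the gene, matters more than the RNA. Most fly lncRNA genes carry only a CR number and have no known role. An open stretch at such a gene can be its promoter, an enhancer of the lncRNA, or an element of a neighbouring coding gene, and accessibility alone does not separate these.

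Peaks at lncRNA genes changed with temperature in both directions. At an FDR under 0.05 by the authors' deposited table, 57 of the 326 were higher at 11 °C (17.5%) and 43 at 25 °C (13.2%). The background over all peaks was 10.0% for 11 °C and 12.2% for 25 °C, below the lncRNA share in the first case and near it in the second. Since the class was proposed with this comparison known, nothing particular to lncRNA genes is read from these shares. The remaining 226 were not called. By the median of the fitted fold changes, the calls toward 11 °C were 1.31-fold and those toward 25 °C 1.41-fold, against 1.31-fold and 1.43-fold over all peaks. Changes of at least 2-fold were few, 2 toward 11 °C and 6 toward 25 °C, or 0.613% and 1.84% of the peaks, where all peaks gave 0.632% and 1.54%. The median difference of log2 concentration, 25 °C minus 11 °C, was -0.025 (quartiles -0.25 and 0.18), against -0.018 (quartiles -0.17 and 0.16) over all peaks. The centres were thus close, and the peaks at lncRNA genes spread somewhat wider around theirs.

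**Figure D1:**
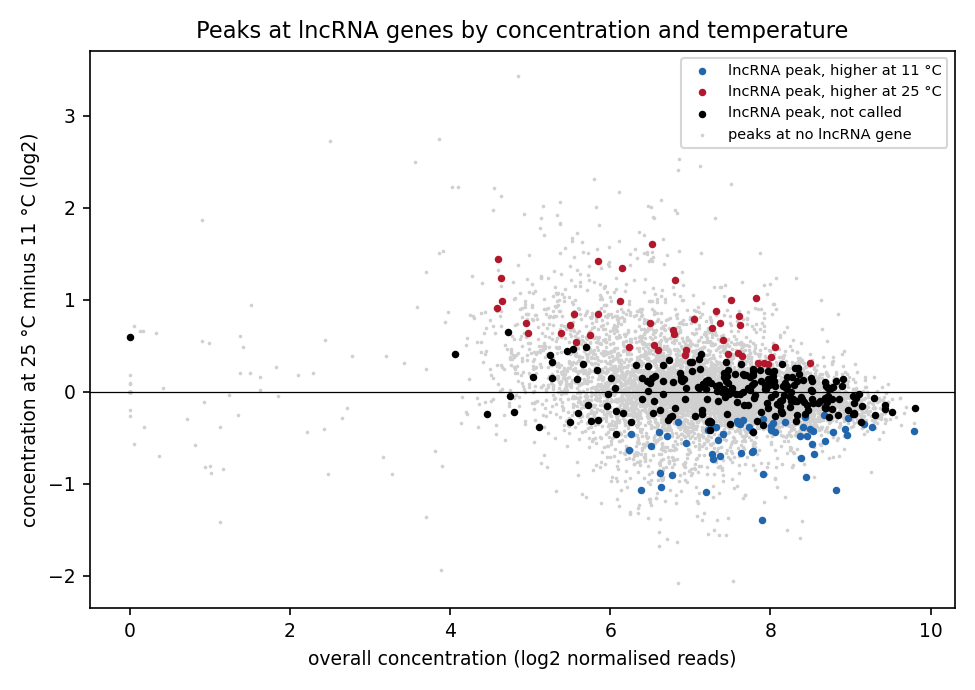
Each point is a peak, with its overall log2 concentration of normalised reads on the x axis and the difference of log2 concentrations, 25 °C minus 11 °C, on the y axis. Blue points are the 57 lncRNA peaks called higher at 11 °C, red points the 43 called higher at 25 °C, black points the 226 not called, and grey points all other peaks; the blue points lie mostly right of the red ones.

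Peaks at lncRNA genes differ from other peaks in place and strength, so each was set beside other peaks of the same location class and concentration decile. The lncRNA peaks gave 17.5% higher at 11 °C and 13.2% at 25 °C, and other peaks, weighted to the same places and strengths, 13.2% and 12.7%. The median difference, 25 °C minus 11 °C, was -0.025 in the lncRNA peaks and -0.047 in the weighted other peaks, 0.022 apart. The median absolute difference was 0.23 in the lncRNA peaks and 0.18 in the weighted other peaks, against 0.17 over all peaks. Without the 44 peaks at lncRNA genes of 50 kb or more, a limit chosen after the values were seen, the other 282 lncRNA peaks gave 14.9% higher at 11 °C and 13.8% at 25 °C. The like peaks then gave 13.5% and 12.3%, and the median differences were -0.0025 in the lncRNA peaks and -0.056 in the like peaks, 0.054 apart. Since the limit was set at genes rich in 11 °C calls, leaving them out had to lower that share. The 44 peaks at the very long genes included 15 higher at 11 °C (34.1%) and 4 higher at 25 °C (9.09%).

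Most of the peaks also lay at a coding gene. A protein-coding gene was in reach, by the same 500 bp rule, for 215 of the 326 (66.0%), and for 129 the midpoint lay inside one. The annotation gives no strand here, so which gene such a peak belongs to cannot be read from position. At 129 peaks within 500 bp of a coding gene's end, 14 were called higher at 11 °C (10.9%) and 13 at 25 °C (10.1%), against 6.90% and 7.19% of peaks there at no lncRNA gene. At 86 peaks deeper inside a coding gene it was 20 (23.3%) and 15 (17.4%), against 13.9% and 18.9%. At 102 peaks with no other annotated gene in reach it was 23 (22.5%) and 13 (12.7%). The remaining 9, at other noncoding genes, had 0 and 2. Among peaks at no lncRNA gene, 15.8% of the 392 intergenic ones were higher at 11 °C and 23.0% at 25 °C, the opposite balance to the 102. Those 392 were weaker, with a median of 92.0 normalised reads against 187 for the 102. In all, lncRNA peaks had a median distance of 1237 bp to the nearest coding gene end, and other peaks 190 bp.

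Calls were also counted by position relative to the lncRNA gene itself. Of 181 peaks with the midpoint inside the lncRNA gene, 41 were higher at 11 °C (22.7%) and 22 at 25 °C (12.2%). Of 145 peaks outside it but within 500 bp, 16 were higher at 11 °C (11.0%) and 21 at 25 °C (14.5%). The shares over all peaks were 10.0% and 12.2%. Of the 181, 41 lay at genes of 50 kb or more, with 14 higher at 11 °C and 4 at 25 °C, and the other 140 had 27 (19.3%) and 18 (12.9%). Peaks more than 500 bp inside from either end numbered 101, with 25 higher at 11 °C and 15 at 25 °C.

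Strength separated the directions, as it did in other peaks. The median lncRNA peak held 196 normalised reads, against 162 for other peaks. Those called higher at 11 °C had a median of 219 and those higher at 25 °C one of 111, against 167 and 97.4 in other peaks. With all peaks split into 4 bins of concentration, the lowest bin held 66 lncRNA peaks, 5 of them higher at 11 °C (7.58%) and 20 at 25 °C (30.3%), against 7.79% and 24.0% of the other peaks in that bin. The next bin had 65 lncRNA peaks, with 13 called toward 11 °C and 8 toward 25 °C (12.3%), against 10.9% and 12.6% of other peaks. In the bin after that it was 19.0% and 15.5% of 84, against 7.92% and 7.60%. The highest bin held 111 lncRNA peaks, 23 higher at 11 °C (20.7%) and 2 at 25 °C (1.80%), against 12.3% and 3.99% of other peaks.

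**Figure D2:**
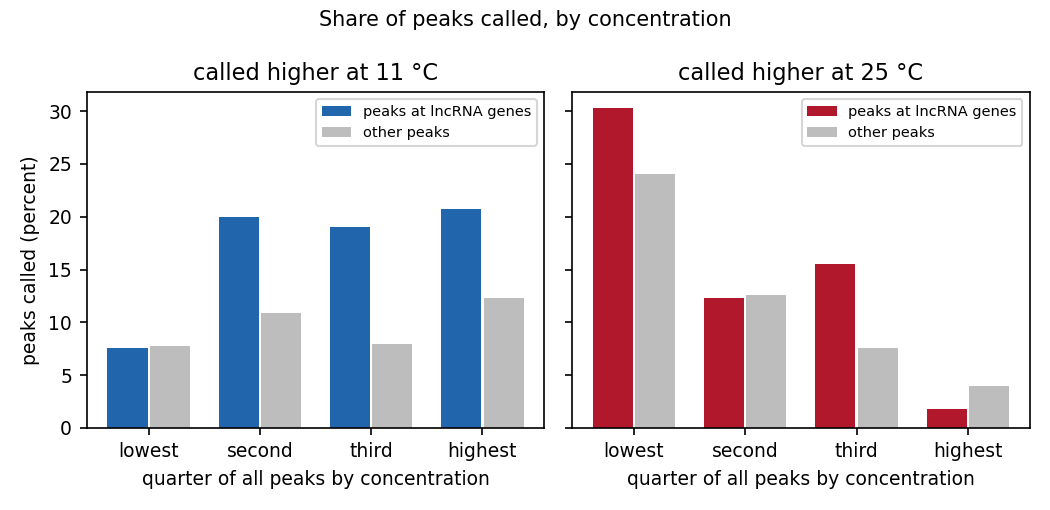
Bars give the percent of peaks called at an FDR under 0.05 in each of 4 bins of overall concentration, higher at 11 °C on the left and at 25 °C on the right, for lncRNA peaks (coloured) and other peaks (grey). Calls toward 11 °C reached 20.7% of lncRNA peaks in the highest bin, and calls toward 25 °C reached 30.3% in the lowest.

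The X chromosome held 91 of the 326 peaks (27.9%), against 17.4% of other peaks, although only 12.3% of lncRNA genes lie there. On the X, 23 of the lncRNA peaks were called toward 11 °C (25.3%) and 14 toward 25 °C (15.4%), while other X peaks gave 10.6% and 11.3%. In this series all flies were female. The 4 X-linked genes CR44999, CR32773, CR44357 and CR43836 account for 36 of the 91 peaks, and without them 11 of 55 were higher at 11 °C and 10 at 25 °C (18.2%). On 2R, 3 of 60 lncRNA peaks were called toward 11 °C and 9 toward 25 °C, where other 2R peaks gave 10.1% and 12.3%. Arm 2L had 8 (15.7%) and 8 (15.7%) of 51, against 10.3% and 10.9% of its other peaks. Arm 3L had 13 (19.7%) and 7 (10.6%) of 66, against 9.81% and 12.1%, and arm 3R had 10 (18.2%) and 5 (9.09%) of 55, against 8.39% and 13.1%. On the smaller chromosomes, none of the 3 peaks on chromosomes 4 and Y was called. The Y peak, at lncRNA:CR40719, is uncertain: its listed start lies before the first base of the chromosome, several genes share that stretch in the annotation, and the flies were female. Without it, 325 peaks and the same 57 and 43 calls remained.

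The peaks most in favour of 11 °C lay mostly away from coding genes. The largest change was 352 bp outside lncRNA:CR44339 (2R, 12984815 to 12985215), with 323 normalised reads at 11 °C and 123 at 25 °C, a log2 fold change of -1.32 (FDR 2.62e-23) by the authors' deposited table. Its nearest coding gene, Psc, which encodes a subunit of a Polycomb repressive complex, lies 4021 bp away. Next came a peak 99 bp outside lncRNA:CR43334 (3L, 628136 to 628536), the lncRNA gene that contains the microRNA gene bantam, with 582 reads at 11 °C and 278 at 25 °C. Its log2 fold change by the authors' deposited table was -1.001 (FDR 2.58e-12). A peak within lncRNA:CR44768 (2L, 18732784 to 18733184), 460 bp from the coding gene CG10348, held 189 reads at 11 °C and 88.8 at 25 °C. Its log2 fold change was -0.99 by the authors' deposited table. The other 7 of the 10 had log2 fold changes of -0.99 to -0.67 there.

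Among these 7, the peak of lncRNA:CR45899 lies 1775 bp from the Hox gene Antp and held 122 reads at 11 °C and 66.1 at 25 °C (log2 fold change -0.84, FDR 7.39e-09, authors' deposited table). lncRNA:CR45036 had the strongest of the 7, with 436 reads at 11 °C and 229 at 25 °C (-0.89, FDR 1.86e-16, authors' deposited table). lncRNA:CR44779 had -0.95, lncRNA:CR31840 -0.83 and lncRNA:CR46482, whose peak is 1241 bp from the translation factor gene eIF4B, -0.80 by the authors' deposited table. The second peak of lncRNA:CR43334 in this group had -0.99 there. The last, with -0.67 by the authors' deposited table, lay 112 bp outside lncRNA:CR45048 and inside the coding gene RhoGAP92B. Of the 10 peaks, 8 had no other annotated gene within 500 bp and 7 lay inside the lncRNA gene.

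The peaks most in favour of 25 °C were weaker and more often beside coding genes. The largest was 311 bp outside lncRNA:CR44097 (3R, 24053880 to 24054280), with 48.9 normalised reads at 11 °C and 149 at 25 °C, a log2 fold change of 1.58 (FDR 2.73e-24) by the authors' deposited table. It is also within 500 bp of CG6000 and of Pisd, which encodes a phosphatidylserine decarboxylase of mitochondrial phospholipid synthesis. A peak 479 bp outside lncRNA:CR43910 (3L, 8570143 to 8570543) lies inside rhea, the talin gene that links integrins to actin, and held only 14.0 reads at 11 °C and 38.04 at 25 °C (1.37, FDR 1.18e-08, authors' deposited table). Peaks inside the very long genes lncRNA:CR44357 and lncRNA:CR44999 followed with 1.24 and 1.18 there. The CR44999 peak is within 500 bp of a glutamine tRNA gene, a family with near-identical copies, so its reads are uncertain.

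The next of these peaks, within lncRNA:CR44720 (3L, 11274335 to 11274735), had no other gene in reach, with 71.8 reads at 11 °C and 166 at 25 °C (1.12, FDR 1.56e-14, authors' deposited table). A peak by lncRNA:CR44366 held 157 reads at 11 °C and 319 at 25 °C (0.99, FDR 2.11e-14, authors' deposited table), and it lies 286 bp from CG6191. lncRNA:CR44655, beside the zinc finger gene mamo, had 127 reads at 11 °C and 254 at 25 °C (0.94, FDR 2.03e-12, authors' deposited table). The other 3 of the 10, at lncRNA:CR44874, lncRNA:CR45392 and lncRNA:let7C, had 1.04, 0.90 and 0.83 there. Of the 10, 7 had a coding gene within 500 bp, against 2 of the 10 most in favour of 11 °C. Their median was 81.3 normalised reads, against 151 for the 10 peaks most in favour of 11 °C.

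**Figure D3:**
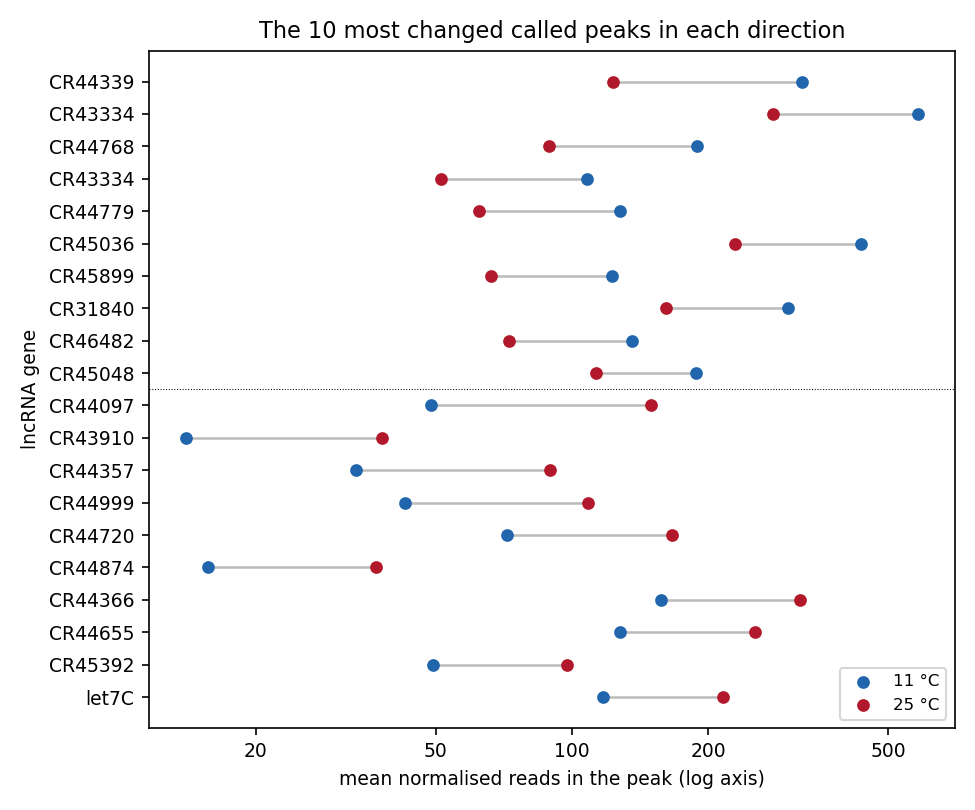
Mean normalised reads at 11 °C (blue) and 25 °C (red), on a log axis, for the 10 called peaks most in favour of 11 °C (above the dotted line) and the 10 most in favour of 25 °C (below it), named by lncRNA gene. The top pair, CR44339, spans 323 reads at 11 °C and 123 at 25 °C, and the first pair below the line, CR44097, spans 48.9 and 149.

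Smaller changes made up the rest of the calls. The other 47 peaks higher at 11 °C, at 38 genes, had log2 fold changes of -0.67 to -0.18 by the authors' deposited table, and the other 33 higher at 25 °C had 0.22 to 0.79. Counted by gene, 46 lncRNA genes had a peak higher at 11 °C, 41 had one higher at 25 °C, 5 of these had both, and 175 had none called.

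Most lncRNA genes had a lone peak, 226 of the 257. Of the 8 genes with 2 or more called peaks, 5 had calls in both directions and 3 in 1 direction. These 3 were lncRNA:CR43334, lncRNA:CR43836 and lncRNA:CR45531, all toward 11 °C. The last, named after its values were seen, is a 2897 bp gene with 445 and 402 reads at 11 °C and 279 and 245 at 25 °C in its 2 peaks, where fold changes were -0.63 and -0.67 on the log2 scale by the authors' deposited table. Both peaks also lie at the coding gene CG14434.

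The gene with most peaks was lncRNA:CR44999 (X, 3373159 to 3522787), whose 149629 bp overlap CG12535 and Myc, the gene of a growth-promoting transcription factor. Peaks within such a gene share a neighbourhood and are not replicates. Of its 15 peaks 2 were higher at 11 °C (log2 fold changes -0.47 and -0.23) and 2 at 25 °C (1.18 and 0.37) by the authors' deposited table. The peak 74 bp from Myc was not called, with 203 reads at 11 °C and 241 at 25 °C (FDR 0.150). lncRNA:CR32773, of 223710 bp, had 9 peaks. The 2 higher at 11 °C, with -0.63 and -0.37 by the authors' deposited table, lie in bi, a T-box transcription factor gene, and 1319 bp from it, and the 1 higher at 25 °C, with 0.22, lies in rb, which encodes a subunit of an adaptor complex for vesicle traffic.

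lncRNA:CR44357, of 239347 bp, showed the most one-sided set among genes with 7 or more peaks. All 7 of its peaks also lie in or within 500 bp of the coding gene CG1677. Of the 7, 5 were higher at 11 °C, with log2 fold changes of -0.42 to -0.18 by the authors' deposited table. The strongest of these held 687 reads at 11 °C and 526 at 25 °C (FDR 0.000442) and lies at brk, which encodes a repressor of genes controlled by the BMP ligand Dpp. The 1 peak higher at 25 °C was the weakest, with 33.4 reads at 11 °C and 89.2 at 25 °C (FDR 1.99e-10). lncRNA:CR45939, which overlaps the nuclear receptor gene ftz-f1, had 5 peaks, of which only 1 was called. That peak lies inside ftz-f1, 377 bp outside lncRNA:CR45939. It held 156 reads at 11 °C and 207 at 25 °C (0.35, FDR 0.00225, authors' deposited table).

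Nearby peaks were read for the called ones as well. Of the 100 called lncRNA peaks, 54 had another peak within 5000 bp, and the nearest was itself called in 22 (40.7%), 14 in the same direction and 8 in the opposite one. For called peaks at no lncRNA gene this was 259 of 995 (26.03%), 203 in the same direction and 56 in the opposite one. Called peaks that are each other's nearest enter such counts from both sides, so these are not counts of independent pairs. The peaks of lncRNA:CR44999 with log2 fold changes of -0.47 and 0.37 are an example.

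Some lncRNA genes contain microRNA genes within their bounds, 36 in the annotation, and 13 of these had peaks. This grouping was made after values had been seen. Calls among their 36 peaks numbered 8 toward 11 °C (22.2%) and 4 toward 25 °C (11.1%), against 16.9% and 13.4% at other lncRNA genes and 10.0% and 12.2% over all peaks. lncRNA:CR43334, around bantam, a microRNA that promotes tissue growth and blocks cell death, had all 3 of its peaks higher at 11 °C. They held 582, 88.6 and 108 normalised reads at 11 °C and 278, 57.3 and 51.5 at 25 °C, which are -1.001, -0.42 and -0.99 as fitted log2 fold changes of the authors' deposited table. No coding gene lies within 500 bp of these peaks.

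lncRNA:let7C (2L, 18455717 to 18473132), the precursor of let-7, miR-100 and miR-125, which act in developmental timing, moved in both directions. The peak at its lower end was strong and not called, with 408 reads at 11 °C and 424 at 25 °C (FDR 0.760, authors' deposited table). The next peak, 1423 bp inside, held 287 reads at 11 °C and 214 at 25 °C (-0.34, FDR 0.00266, authors' deposited table). The peak 4298 bp inside went the other way, with 117 reads at 11 °C and 215 at 25 °C (0.83, FDR 2.48e-11, authors' deposited table). The weak peak within 500 bp of the let-7 and miR-125 genes held 24.0 reads at 11 °C and 40.2 at 25 °C (0.44, FDR 0.0232, authors' deposited table), and the other was not called (FDR 0.360).

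lncRNA:CR43836, which contains mir-31b, had 3 of 5 peaks higher at 11 °C, at -0.39, -0.30 and -0.27 as log2 fold changes by the authors' deposited table, all in or within 126 bp of the gene Nost. lncRNA:CR44206, around mir-184, had 1 peak each way, -0.22 and 0.36 by the authors' deposited table. lncRNA:CR46006, around mir-276a, had 5 peaks, each at least 48887 bp from any coding gene, and 1 of these was higher at 25 °C, with 327 reads at 11 °C and 407 at 25 °C (0.24, FDR 0.0138, authors' deposited table). The 4 peaks of lncRNA:CR43650, around mir-8, a microRNA with a known role in fat body control of body size, were not called, with log2 fold changes of -0.04 to 0.08 by the authors' deposited table. The peak of lncRNA:CR43651, around mir-14, held 716 reads at 11 °C and 650 at 25 °C and was not called (FDR 0.464, authors' deposited table).

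**Figure D4:**
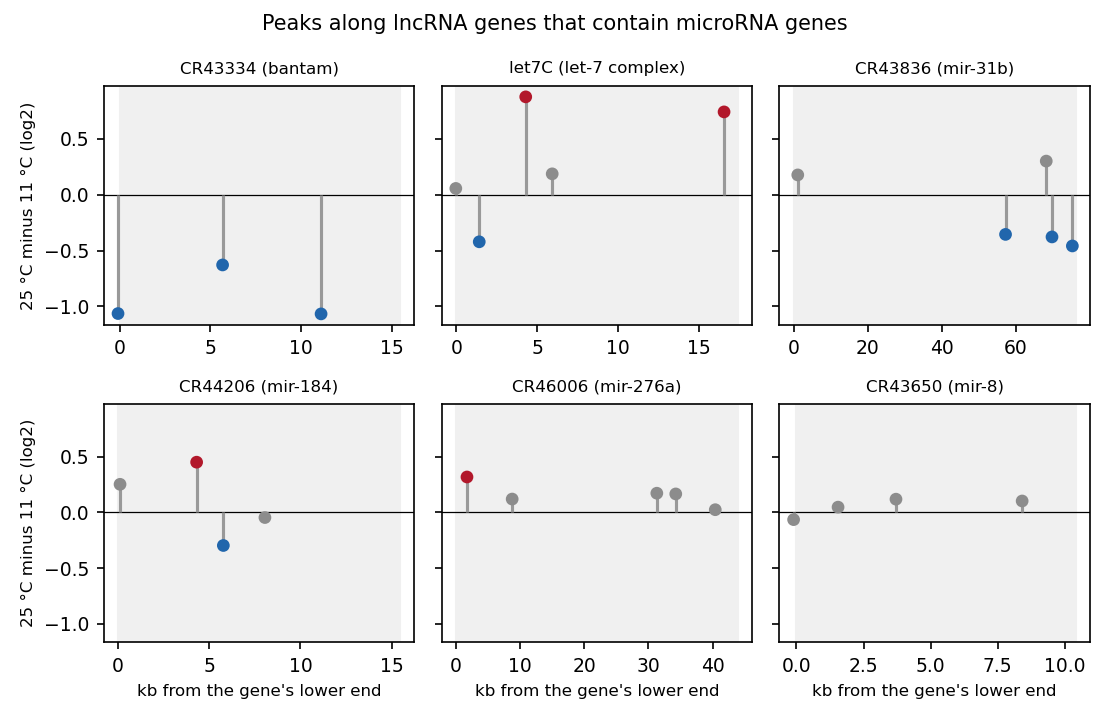
Each panel is an lncRNA gene that contains the microRNA gene in brackets, with the gene's extent shaded, kb from its lower coordinate end on the x axis and the difference of log2 concentrations, 25 °C minus 11 °C, on the y axis. Blue points are called higher at 11 °C, red points higher at 25 °C and grey points not called; all 3 points of CR43334 are blue, and let7C has 1 blue and 2 red points.

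lncRNA genes with a name beyond a CR number were few among those with peaks, 9 of 38, with 14 peaks, of which 1 was higher at 11 °C (7.14%) and 3 at 25 °C (21.4%), where all peaks gave 10.0% and 12.2%. Besides let7C, the only call was at lncRNA:SMRG, 71 bp from Tis11, which encodes a zinc finger protein of mRNA decay, with 43.9 reads at 11 °C and 67.3 at 25 °C (0.51, FDR 0.00603, authors' deposited table). The peak beside lncRNA:roX1 held 65.9 reads at 11 °C and 67.8 at 25 °C (FDR 0.840), and that beside lncRNA:roX2 held 209 and 215 (FDR 0.824, authors' deposited table). The roX peaks also lie 219 and 73 bp from the coding genes yin and nod. No listed peak was within 500 bp of Hsromega, the heat shock lncRNA gene, nor of flam, the main piRNA locus against gypsy elements in ovarian somatic cells, acal, cherub, noe, yar, CRG or sphinx. A list of lncRNAs with a described function matched 25 genes, of which 11 had 18 peaks, 1 higher at 11 °C (5.56%) and 2 at 25 °C (11.1%). All of these calls were the ones at let7C. The list's peaks at Uhg1, Uhg2, Uhg4, Uhg5 and Uhg8 lie outside the class of lncRNA peaks examined here.

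At the bithorax complex, the peak in lncRNA:bxd, which spans regulatory DNA of the Hox gene Ubx, held 239 reads at 11 °C and 251 at 25 °C (FDR 0.682, authors' deposited table). The 2 peaks in lncRNA:iab8, whose RNA represses abd-A in the nervous system, held 118 and 44.2 reads at 11 °C and 97.7 and 61.7 at 25 °C and were not called (FDR 0.237 and 0.0667, authors' deposited table). Of the Hox genes there, Ubx and Abd-B had 9 peaks and abd-A had none. Among the 9, 2 were higher at 11 °C (22.2%) and 1 at 25 °C (11.1%), against 10.0% and 12.2% over all peaks. lncRNA:Irar, inside the insulin receptor gene InR, held 215 reads at 11 °C and 230 at 25 °C (FDR 0.659, authors' deposited table). lncRNA:Vinr, and lncRNA:enrr at the neuronal gene elav, had log2 fold changes of -0.11 and -0.08 and were not called by the authors' deposited table.

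Genes for proteins that work with 2 kinds of named lncRNA gave 2 calls among 18 peaks, where 22.2% of all peaks were called. The 6 dosage compensation genes that act with the roX RNAs had 9 peaks. The helicase gene mle had a peak higher at 11 °C, with 119 reads at 11 °C and 69.5 at 25 °C (log2 fold change -0.72 by the authors' deposited table), and the scaffold gene msl-1 had 1 higher at 25 °C, with 163 and 207 reads (0.28). The 9 peaks at the 7 genes of the omega speckles, nuclear bodies built on Hsromega RNA, gave no call in either direction, with log2 fold changes of -0.17 to 0.05 by the authors' deposited table. The median difference, 25 °C minus 11 °C, was -0.18 for the first list and -0.095 for the second, against -0.018 over all peaks.

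The 5 strongest lncRNA peaks held 716 to 993 normalised reads at 11 °C and 641 to 835 at 25 °C. The only 1 called was within lncRNA:CR46036 and inside osa, which encodes a subunit of the Brahma chromatin remodelling complex, with 993 reads at 11 °C and 738 at 25 °C (-0.39, FDR 0.000128, authors' deposited table). The peak by lncRNA:CR45805 lies inside Pdk1, a kinase gene of insulin signalling, with 945 reads at 11 °C and 835 at 25 °C (FDR 0.192, authors' deposited table). At the fat body GATA factor gene srp, lncRNA:CR44133 had 3 peaks, of which 1 was called, with 403 reads at 11 °C and 303 at 25 °C (-0.32, FDR 0.00572, authors' deposited table); this gene was named after its values were seen. At the weak end, the peak 91 bp outside lncRNA:CR46489, also named after its values were seen, was listed at a log2 concentration of 0, the lowest value in the table, at 11 °C and was not called.

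The limit of 500 bp fell between peaks without calls. The 3 peaks just inside it for a given gene, 493, 492 and 490 bp from lncRNA:CR45201, lncRNA:CR44661 and lncRNA:CR44459, had log2 fold changes of 0.07, -0.14 and -0.12 by the authors' deposited table. The 3 just outside, 503, 525 and 527 bp from lncRNA:CR45596, lncRNA:CR44467 and lncRNA:CR44298, had -0.06, 0.19 and 0.08 there. The peak by lncRNA:CR44661 also lies inside lncRNA:CR44662, and that by lncRNA:CR44459 is nearer to lncRNA:CR44458. Of the peaks just inside, only that by lncRNA:CR45201 thus sat at the limit of the class.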

How the data were processed

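Tools named in the submitters' processing notes are bedtools, Bowtie2, cutadapt, DiffBind, FastQC, MACS2, Picard, SAMtools and Trim Galore, with the dm6 build and no versions, roles or order. The transposase offset, treatment of duplicates and multiply mapped reads, peak set and library scaling are not given in the sources used here. Scaling can shift all fold changes alike, and multiple mapping matters at repeated genes.

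The deposited table gives log2 concentrations of normalised reads and the authors' log2 fold change, with a deposited p-value and FDR per peak. The FDR equals a Benjamini-Hochberg adjustment over the 8069 peaks to within 1.83e-15, and 0 of the called lncRNA peaks had a fold change opposite in sign to the concentrations. Regressed on concentration differences, the fold changes gave a slope of 0.806, so they are smaller on average. All lncRNA peaks are 401 bp wide.

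Peaks were assigned with Python 3.11.15 and pandas 2.3.3. Location classes used genes other than lncRNA: gene end (midpoint within 500 bp of either end), gene body and intergenic. Assignment and weighting were tested on simulated data. Members, lists and grouping were chosen with earlier results of these data known. Named peaks are the 10 most changed calls each way, those at genes with names, with most peaks (ties at the fifth place kept, 7 genes), with calls in both directions, the 5 strongest and those at the 500 bp limit; others are said to be so. Of the 31 functional lncRNA names 25 matched the annotation. Sequences were not used here. No model was refitted, as values per library are not used here. Library depth is unknown, and whether replicates are separate pools of flies is not stated beyond 25 flies each. Some neighbouring genes are not reported here.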

Additional observations from a re-analysis of the deposited data

How the results depend on the processing

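Toward 11 °C the count was 57 in the report, and 37 at an FDR under 0.01, or 11.3% against 6.35% of all peaks. It was 2 with changes of at least 2-fold and 23 among the 102 peaks with no other gene in reach. Toward 25 °C it was 43, and 27 at an FDR under 0.01, or 8.28% against 8.55% of all peaks. The 25 °C count was 6 with at least 2-fold, 22 with the midpoint inside the gene and 13 with no other gene in reach. Without the lowest bin of concentration it was 23. A stricter FDR or fold can only lower a count, and so can the other settings, which keep fewer peaks. As shares of the peaks kept, calls toward 25 °C were 12.2% with midpoints inside the gene and 12.7% with no other gene in reach. The report's share was 13.2% and that of all peaks 12.2%. Toward 11 °C the share was 22.5% with no other gene in reach, against 17.5% in the report and 10.0% of all peaks. Why shares moved was not tested. Without the lowest bin 52 of 260 lncRNA peaks were called toward 11 °C and 8.85% toward 25 °C, against 10.3% and 8.10% of other peaks. The median difference, 25 °C minus 11 °C, stayed below 0 throughout: -0.0032 with the authors' fitted fold change, -0.072 with the midpoint inside the gene, -0.012 with no other gene in reach, -0.059 without the lowest bin, and, chosen after seeing the data, -0.016 with all genes of biotype lncRNA and -0.0025 without genes of 50 kb or more. The distance from like peaks was 0.010 with locations from protein-coding genes, and 0.054 without genes of 50 kb or more, against 0.022. No paired analysis was possible because only means per temperature are listed, so leaving out replicates and the replicate block were not run either. Depth per library is unknown, so what it limits could not be measured. For each median the cause of the shift was not tested.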
